A study of Mus musculus with 16 samples.

Results

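Genes of lipid droplets and of the switch to fatty acid oxidation were followed by RNA sequencing of the mouse hypothalamus across 8 diets. The 9 genes were Plin4, Plin2, Angptl4, Pdk4, Cpt1a, Cpt1c, Cd36, Acacb and Ppara, and their rows were taken by gene name, 9 of the 47069 genes of the count table. All 9 were present and all 9 passed the filter on low counts. The mice were of the inbred strain C57BL/6N, with no genetic change given, and their age and sex are not given in the sources used here. The diets, defined by their share of energy, combined 60% fat with 1%, 2.5%, 5% or 20% protein, or 20% fat with 1%, 2.5%, 5% or 20% protein. Each diet had 2 libraries, so each protein level had 4 and each fat level 8. The question set by the design was how protein content changes hypothalamic expression at each fat level. Nothing in the labels ties the 2 libraries of a diet to different animals, so the p-values cover the spread among these libraries alone, and that spread may be technical.

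Cells store fatty acids as triglyceride in lipid droplets, whose surface is coated by perilipins such as those encoded by Plin2 and Plin4. Fatty acids enter cells through transporters that include CD36, and enter mitochondria through the carnitine palmitoyltransferases, which malonyl-CoA inhibits. PDK4 switches off the entry of pyruvate into the citric acid cycle, and ANGPTL4, a secreted protein induced by fasting, inhibits lipoprotein lipase. The receptor PPARα, encoded by Ppara, is activated by fatty acids and induces many of these genes, and Pdk4 and Angptl4 are also known targets of the glucocorticoid receptor.

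Library totals ran from 17731242 to 18511818 counts, and 5 of the 16 libraries stood apart in RNA makeup. The mitochondrial genome held 1.54% to 1.78% of the counts in 3 of the 4 libraries on 1% protein, all but replicate 2 of 20% fat, against 2.19% to 3.2% elsewhere. Deviations of genes from their mean went with deposited gene length at a Spearman rho of -0.26 to -0.17 across genes in those 3 libraries and of -0.14 to 0.32 in the others. Markers of cortex and hippocampus stood log2 1.01 over their mean level across libraries in replicate 2 of 20% fat with 1% protein and 1.81 over it in replicate 2 of 20% fat with 2.5% protein, and lay between -0.46 and 0.04 in the others. All 4 libraries at 1% protein are thus among the 5. All 13 hypothalamic markers were tested, of which 3 were called lower at 1% against 20% protein, with a summed level of 730 to 1169 CPM at 1% and 996 to 1145 CPM at 20% protein. Of 8 thalamus markers 4 were called higher, with sums of 1117 to 1471 CPM at 1% and 778 to 1006 CPM at 20% protein, and of 8 mural cell markers 2 were higher and 4 lower, with 207 to 225 CPM at 1% and 245 to 265 CPM at 20%. Of 6 tested choroid plexus markers 1 was called higher, with sums of 52.1 to 261 CPM at 1% and 47.6 to 59.2 CPM at 20% protein. These sums were highest in the libraries with cortex markers, at 261 CPM on 1% and 220 CPM on 2.5% protein. Replicate 1 of 60% fat with 1% protein followed at 143 CPM. The part of these tissues and cells in the results at 1% protein was not tested. Over all genes tested, 8.26% were called higher and 6.01% lower at 1% against 20% protein. No fit of 1% protein can leave out all 4 of its libraries. Some results are also given without the 3 libraries of low mitochondrial share or without the 2 with cortex markers. Others are given with all libraries only.

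Per kilobase of annotated exon, Cpt1c had the highest level of the 9 genes, at 22.6 CPM per kilobase averaged over all libraries. CPM are counts scaled to a common library total, here after TMM, edgeR's correction for library composition. Cpt1c encodes the brain form of carnitine palmitoyltransferase, a malonyl-CoA sensor of the endoplasmic reticulum in neurons. Plin4 followed at 7.47, Cpt1a at 5.52, Pdk4 at 3.25, Plin2 at 3.06, Angptl4 at 2.87, Acacb at 1.84, Cd36 at 0.820 and Ppara at 0.666 CPM per kilobase. Counts may take in intronic reads, which exon length does not allow for. Gene spans ran from 8081 bases for Angptl4 to 107112 for Cd36, so the order between short and long genes is approximate. The order of levels was not the order of variation across libraries. The highest library exceeded the lowest 8.49-fold for Plin4, 2.88-fold for Angptl4 and 2.58-fold for Pdk4, against 1.19-fold for Cpt1c. Cd36 and Ppara rested on few reads, 34 to 65 and 38 to 59 counts per library, and counting error alone reached 17.1% and 16.2% of the count there. The counting error of the other 7 genes was at most 9.58%.

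**Figure D1:**
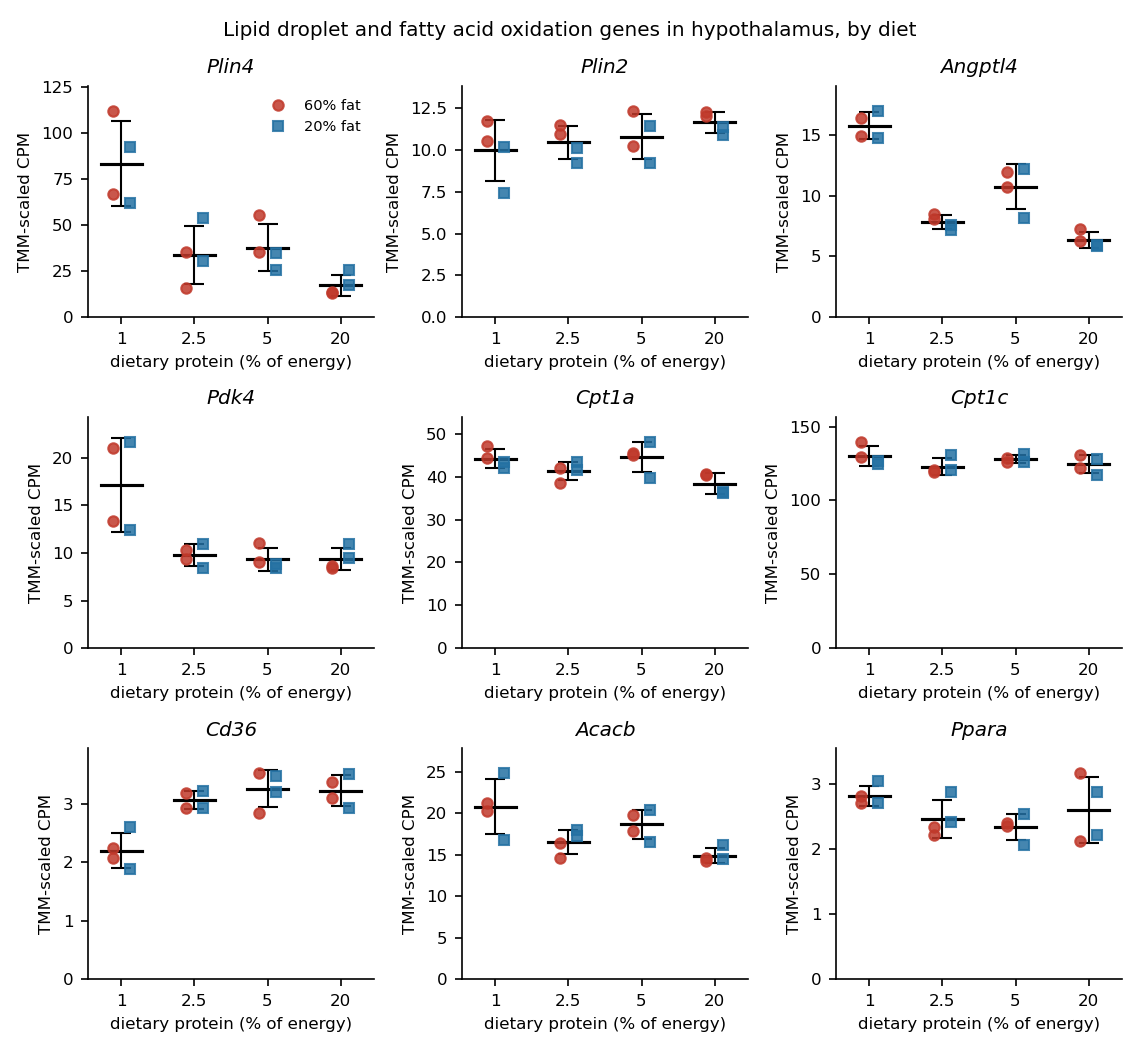
TMM-scaled CPM (y axes, from 0) of the 9 genes against dietary protein (x axes, % of energy), with 60% fat as circles left of 20% fat as squares. Bars and whiskers give the mean ± SD of the 4 libraries at a protein level; Plin4, Angptl4 and Pdk4 stand highest at 1% protein, and Cd36 lowest.

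In GRCm38, Plin4 (ENSMUSG00000002831) lies on the minus strand of chromosome 17 (56100591 to 56109803), with Angptl4 (ENSMUSG00000002289; 33773750 to 33781830, minus) on the same chromosome. Plin2 (ENSMUSG00000028494) lies on chromosome 4 (86648386 to 86670060, minus), Pdk4 (ENSMUSG00000019577) on chromosome 6 (5483351 to 5496309, minus) and Cpt1c (ENSMUSG00000007783) on chromosome 7 (44959372 to 44974851, minus). Cd36 (ENSMUSG00000002944; 17781690 to 17888801, minus) and Acacb (ENSMUSG00000042010; 114146535 to 114250761, plus) share chromosome 5. Ppara (ENSMUSG00000022383) lies on chromosome 15 (85734983 to 85802819, plus) and Cpt1a (ENSMUSG00000024900) on chromosome 19 (3322334 to 3385733, plus). All 9 are protein-coding. No source used here says whether counting used strand, so overlapping antisense genes cannot be told apart. This touches Plin4, whose exons share 17 bases with Hdgfl2 (1683 to 2204 counts per library), and Cpt1c, which overlaps the antisense gene 6530437J22Rik over 3875 bases; the Acacb span holds a pseudogene, Gm13784, listed at 0 in all libraries.

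Promoter sequences (250 bases before to 50 after the RefSeq start, GRCm38.p6) were matched for 8 of the 9 genes by symbol; Angptl4 was not matched. They are shown for Plin4 and Pdk4, whose levels moved together over the libraries, and for Cd36, which was low where they were high at 1% protein. Each is printed 5′ to 3′ on the strand of its gene, in lower case, with matches on either strand to 9 motifs in capitals.
Plin4, chr17:56109733-56110032, minus strand: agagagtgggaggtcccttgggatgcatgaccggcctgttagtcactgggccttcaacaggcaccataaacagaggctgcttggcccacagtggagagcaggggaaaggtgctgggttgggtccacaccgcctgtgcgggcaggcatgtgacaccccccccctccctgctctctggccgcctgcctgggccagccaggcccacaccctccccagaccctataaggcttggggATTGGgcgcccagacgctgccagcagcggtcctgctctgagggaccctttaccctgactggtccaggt
Pdk4, chr6:5496229-5496528, minus strand: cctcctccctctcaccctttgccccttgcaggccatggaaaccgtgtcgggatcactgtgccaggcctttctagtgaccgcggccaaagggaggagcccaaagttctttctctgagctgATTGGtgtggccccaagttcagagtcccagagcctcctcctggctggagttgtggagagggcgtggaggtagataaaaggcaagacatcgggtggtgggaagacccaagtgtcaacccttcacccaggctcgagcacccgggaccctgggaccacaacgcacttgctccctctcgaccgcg
Cd36, chr5:17835847-17836146, minus strand: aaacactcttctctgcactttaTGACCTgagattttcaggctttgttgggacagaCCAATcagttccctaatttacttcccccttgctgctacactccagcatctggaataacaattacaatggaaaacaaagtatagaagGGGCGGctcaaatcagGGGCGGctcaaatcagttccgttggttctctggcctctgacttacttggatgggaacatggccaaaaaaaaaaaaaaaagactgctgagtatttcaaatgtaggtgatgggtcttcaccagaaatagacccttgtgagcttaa
The only capitals in Plin4 and in Pdk4 are the CCAAT box (CCAAT, whose reverse complement is ATTGG), 18 bases before the start in Plin4 and 131 before it in Pdk4. Of the 8 promoters 7 held that box, as did 37.4% of all 32851 promoters of this length. Cd36 also held 2 GC boxes (GGGCGG; 5 of the 8 promoters and 35.7% of all) and 1 nuclear receptor half-site (AGGTCA, printed as its reverse complement), which 5 of the 8 and 16.3% of all held. No match was found in the 8 promoters to a PPAR response element (AGGNCA repeated after 1 base; 0.381% of all), a glucocorticoid response element (GNACA, then any 3 bases, then TGTNC; 0.475%), its half-site (AGAACA; 19%) or a forkhead motif (TGTTTAC; 3.65%). The E-box CACGTG was in Plin2 (7.15% of all) and the TATA box TATAAA in Acacb (13.6%). The half-sites AGGTCA and AGAACA can lie within the longer elements. These are matches of letters within 300 bases, and say nothing about whether a factor binds there or elsewhere.

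At 1% protein, Plin4 and Angptl4 stood above every library at 20% protein, at both fat levels. Plin4, whose product coats lipid droplets and was first described in adipocytes, had 67.0 and 112 CPM at 60% fat and 62.2 and 92.6 CPM at 20% fat on 1% protein, against 13.7 and 13.2 CPM at 60% fat and 17.3 and 25.6 CPM at 20% fat on 20% protein. The lowest library at 1% protein was thus well above the highest at 20%. Plin4 rose 4.83-fold (log2 2.27 ± 0.32 SE; Benjamini-Hochberg adjusted p = 0.000438, edgeR quasi-likelihood F test), with 83.5 ± 23.3 CPM at 1% and 17.4 ± 5.72 CPM at 20% protein (SD, n = 4 each). Angptl4 had 14.9 and 16.4 CPM at 60% fat and 14.7 and 17.0 CPM at 20% fat on 1% protein, against 6.29 and 7.29 CPM and 5.89 and 5.92 CPM on 20% protein. Its libraries at 1% protein lay close together, at 15.7 ± 1.11 CPM, against 6.35 ± 0.651 CPM at 20% (SD, n = 4 each). Angptl4 rose 2.49-fold (log2 1.31 ± 0.11, edgeR quasi-likelihood adjusted p = 4.59e-06), the sixth-smallest p among the 16646 genes tested. Plin2, the perilipin found in most cell types, gave no call. It had 9.99 ± 1.83 CPM at 1% and 11.7 ± 0.619 CPM at 20% protein (SD, n = 4 each), a log2 change of -0.23 with a 95% interval of -0.44 to -0.02 (adjusted p = 0.143, edgeR's quasi-likelihood test). The Plin2 libraries overlapped, and the lowest, at 7.43 CPM, was replicate 2 of 20% fat with 1% protein. Over 25 alternatives its change ran from -0.58, without the 3 libraries of low mitochondrial share, to -0.14, without that lowest library. It passed in 1 of them, with a surrogate variable (an estimated hidden factor) in the model (-0.41, adjusted p = 0.0155).

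Counted over the 9 genes, 5 rose at 1% against 20% protein (Plin4, Angptl4, Pdk4, Acacb and Cpt1a), 1 fell (Cd36) and 3 did not pass (Plin2, Cpt1c and Ppara). Over all genes tested 8.26% rose and 6.01% fell. The 4 libraries at 1% lay above all 4 at 20% for the same 5 genes, as for 7.40% of all genes, and below them for Cd36, as for 6.35%. The median log2 change was 0.20 over the 9 genes and 0.0035 over all genes. The 1% and 2.5% diets carry diet codes with another start than those of the 5% and 20% diets in the labels, so protein and the start of the code cannot be told apart in this contrast. In bulk tissue, fewer cells of a type and less RNA per cell cannot be told apart either.

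Among the oxidation switches Pdk4 changed most. This kinase phosphorylates and inactivates pyruvate dehydrogenase, sparing glucose. Pdk4 had 13.4 and 21 CPM at 60% fat and 12.4 and 21.7 CPM at 20% fat on 1% protein, against 8.44 and 8.64 CPM at 60% fat and 9.46 and 10.9 CPM at 20% fat on 20% protein. The 2 libraries of each diet at 1% protein differed by more than the whole range at 20% protein, but the groups did not overlap. Pdk4 rose 1.83-fold (log2 0.87 ± 0.17, edgeR quasi-likelihood adjusted p = 0.00382). Plin4, Angptl4 and Pdk4 passed in each of 25 alternatives, over which their log2 changes ran from 2.05 to 2.49, from 1.24 to 1.5 and from 0.71 to 1.2. These include the fit without the 3 libraries of low mitochondrial share, which leaves 1 library at 1% protein and assumes that it varies like the others. That library, replicate 2 of 20% fat, carried cortex markers and had the highest sum of choroid plexus markers, at 261 CPM. It had the highest Angptl4 and Pdk4 of all 16 libraries, but not the highest Plin4. In that fit Plin4, Angptl4 and Pdk4 had log2 changes of 2.30, 1.5 and 1.2.

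Acacb and Cpt1a act on opposite sides of the malonyl-CoA brake, and both changed less. Acacb encodes acetyl-CoA carboxylase 2, which makes malonyl-CoA at the mitochondrial surface. It had 20.3 and 21.3 CPM at 60% fat and 24.9 and 16.7 CPM at 20% fat on 1% protein, against 14.2 and 14.6 CPM and 14.5 and 16.2 CPM on 20% protein. The groups did not overlap, but the lowest Acacb library at 1%, replicate 2 at 20% fat, lay close to the highest at 20% protein. Acacb rose by log2 0.48 ± 0.11 (1.40-fold, edgeR quasi-likelihood adjusted p = 0.00869). Without the 3 libraries of low mitochondrial share, where that replicate alone stands for 1% protein, Acacb had 0.12 (adjusted p = 0.740, edgeR's quasi-likelihood test), and with the surrogate variable 0.29 (0.0591). Cpt1a encodes the widely expressed form of the transferase that malonyl-CoA inhibits at the outer mitochondrial membrane. It had 44.3 ± 2.17 CPM at 1% and 38.4 ± 2.44 CPM at 20% protein (SD, n = 4 each), a rise of log2 0.20 ± 0.07 (1.15-fold, edgeR quasi-likelihood adjusted p = 0.0457). That call was lost in 18 of 25 alternatives, over all of which the change ran from 0.14 to 0.27. The removal of any single library ended it, except of replicate 2 of 20% fat with 1% protein or of either library of 20% fat with 5% protein.

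Cpt1c and Ppara gave no call between 1% and 20% protein. Cpt1c had 130 ± 6.74 CPM at 1% and 125 ± 5.92 CPM at 20% protein (SD, n = 4 each), a log2 change of 0.06 with a 95% interval of -0.04 to 0.16. Ppara had 2.82 ± 0.157 CPM at 1% and 2.60 ± 0.511 CPM at 20% protein (SD, n = 4 each), a change of 0.12 with an interval of -0.17 to 0.40. Adjusted p was 0.413 for Cpt1c and 0.619 for Ppara in edgeR's quasi-likelihood test. The Ppara interval is wide beside that of Cpt1c, and a change within it was not detectable at that depth.

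Cd36, a transporter of long-chain fatty acids known from endothelial cells, macrophages and adipocytes, was the only gene of the 9 that fell. It had 2.25 and 2.08 CPM at 60% fat and 1.88 and 2.60 CPM at 20% fat on 1% protein, against 3.39 and 3.1 CPM at 60% fat and 3.51 and 2.93 CPM at 20% fat on 20% protein. All 4 libraries at 1% were below the 4 at 20% protein, as for 6.35% of all genes, and below the 4 at 2.5%, as for 3.15%. The fall was 1.46-fold (log2 -0.55 ± 0.13, edgeR quasi-likelihood adjusted p = 0.0136). Endothelial markers moved with it. Of 10 tested, 9 fell, where 6.01% of all genes did. Their summed level was 179 to 201 CPM at 1% protein and 236 to 278 CPM at 20%. Meningeal fibroblast markers did so too, with 5 of 6 tested lower and sums of 83.1 to 152 CPM at 1% and 170 to 213 CPM at 20% protein. At 2.5% protein, however, the meningeal sums were in the same low range, at 90.7 to 157 CPM, while Cd36 lay near its level at 20%, and the endothelial sums were 213 to 284 CPM. Of the meningeal markers Ogn was listed at 0. No adipocyte marker of 7 was called (5.68 to 7.54 CPM at 1% and 6.94 to 7.57 CPM at 20%), nor any of 9 tested markers of microglia and macrophages (232 to 336 CPM at 1% and 279 to 327 CPM at 20%), where P2ry12 and Itgam were listed at 0. The part of these cells in the fall of Cd36 was not tested. Without replicate 1 of 20% fat with 1% protein the fall was -0.48 and did not pass, nor did it pass with the surrogate variable (-0.47, adjusted p = 0.0652) or without the 3 libraries of low mitochondrial share (-0.33, adjusted p = 0.506, edgeR's quasi-likelihood test).

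**Figure D2:**
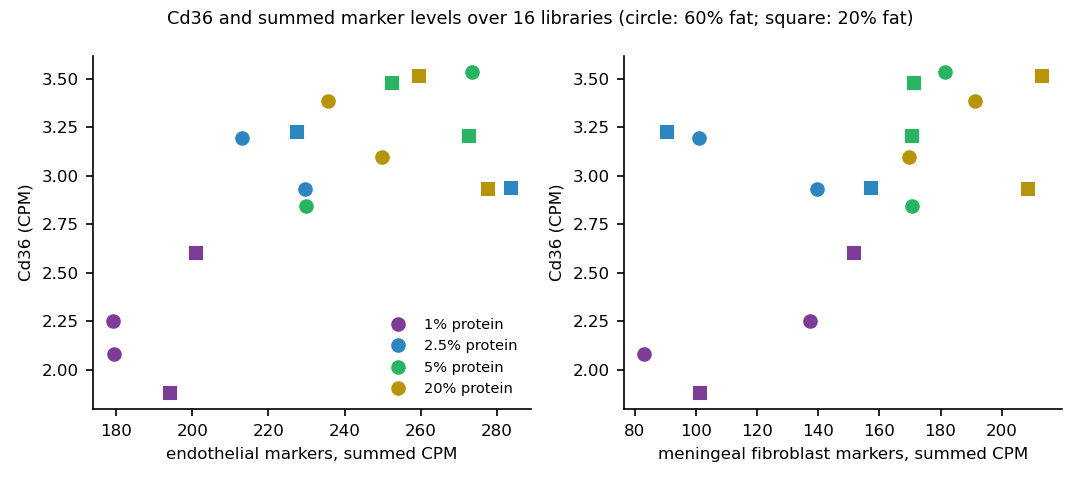
Cd36 CPM (y axes) against the summed CPM of endothelial markers (left x axis) and meningeal fibroblast markers (right x axis) in the 16 libraries, coloured by protein level; axes do not start at 0. The 4 libraries at 1% protein have the lowest Cd36, at 1.88 to 2.60 CPM, and the lowest endothelial sums, at 179 to 201 CPM.

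The intermediate protein levels did not line up in a single order. Angptl4 averaged 15.7 CPM at 1%, 7.81 ± 0.581 at 2.5%, 10.7 ± 1.86 at 5% and 6.35 at 20% protein (SD, n = 4). Its 2.5% libraries, at 8.5, 8.04, 7.16 and 7.56 CPM, thus lay mostly under those at 5%, at 12, 10.7, 12.2 and 8.12 CPM, with 1 overlapping. Plin4 averaged 83.5 CPM at 1%, 33.9 ± 15.6 at 2.5%, 37.8 ± 12.7 at 5% and 17.4 at 20% protein. The 2.5% and 5% libraries of Plin4 overlapped widely, at 16.1 to 53.9 CPM and 25.4 to 55.6 CPM. Pdk4 was high at 1% protein alone, with 17.1 ± 4.91 CPM against 9.79 ± 1.11 at 2.5%, 9.35 ± 1.21 at 5% and 9.37 ± 1.13 at 20%. Cd36 likewise averaged 2.20 ± 0.307 CPM at 1%, 3.07 ± 0.160 at 2.5%, 3.27 ± 0.317 at 5% and 3.23 ± 0.264 at 20% protein. Acacb averaged 20.8 CPM at 1%, 16.5 at 2.5%, 18.6 at 5% and 14.9 at 20% protein. Cpt1a averaged 44.3 CPM at 1%, 41.4 at 2.5%, 44.6 at 5% and 38.4 at 20% protein. Both had, like Angptl4, a lower mean at 2.5% than at 5%.

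Between 5% and 20% protein, whose diet codes start alike, Angptl4 rose by log2 0.76 ± 0.11 (1.69-fold, edgeR quasi-likelihood adjusted p = 0.0181). The 5% libraries all exceeded the 4 at 20% for Angptl4 and Acacb, as for 1.59% of all genes. Angptl4 was the only one of the 9 to pass, where 0.018% of all genes rose. Plin4 had 1.13 ± 0.32, Acacb 0.33 ± 0.11 and Cpt1a 0.22 ± 0.07, each with an adjusted p of 1.00. The Angptl4 call was lost in 6 of 25 alternatives, each of which left out 1 library at 5% or 20% protein (adjusted p up to 0.124, log2 0.66 to 0.86 over all 25). At 5% protein these were the pair at 60% fat and replicate 1 at 20% fat, and at 20% protein replicate 1 at 60% fat and the pair at 20% fat. At 2.5% against 20% protein none of the 9 passed, where 0.00601% of all genes did. In that contrast 2 of the 9, Plin4 (0.96 ± 0.32) and Angptl4 (0.30 ± 0.12), had an unadjusted p under 0.05, as did 4.81% of all genes, and DESeq2 called none of the 9.

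Between 1% and 2.5% protein, whose diet codes also start alike, 3 of the 9 genes rose, where 1.39% of all genes did. Angptl4 had a log2 change of 1.01 ± 0.11 (adjusted p = 0.000305), Plin4 of 1.31 ± 0.30 (0.0317) and Pdk4 of 0.81 ± 0.17 (0.0189) in edgeR's quasi-likelihood test. The 4 libraries at 1% lay above all 4 at 2.5% for these 3 genes, as for 4.13% of all genes, and below them for Cd36, as for 3.15%. Cd36 had -0.48 ± 0.13 (adjusted p = 0.0656) and Acacb 0.33 ± 0.11 (0.0928), and neither passed. Angptl4 passed in all 25 alternatives. The calls of Plin4 and Pdk4 ended without any 1 of 4 libraries: replicate 2 at 60% fat on 1% protein, and on 2.5% protein the pair at 60% fat and replicate 2 at 20% fat. That of Plin4 also ended without the 3 libraries of low mitochondrial share (adjusted p up to 0.202 over all alternatives). Without replicate 2 of 20% fat with 1% protein, or without both libraries that carried cortex markers, Acacb rose and Cd36 fell in this contrast as well. Over all genes the removal of both called 11.7% higher and 12.1% lower.

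**Figure D3:**
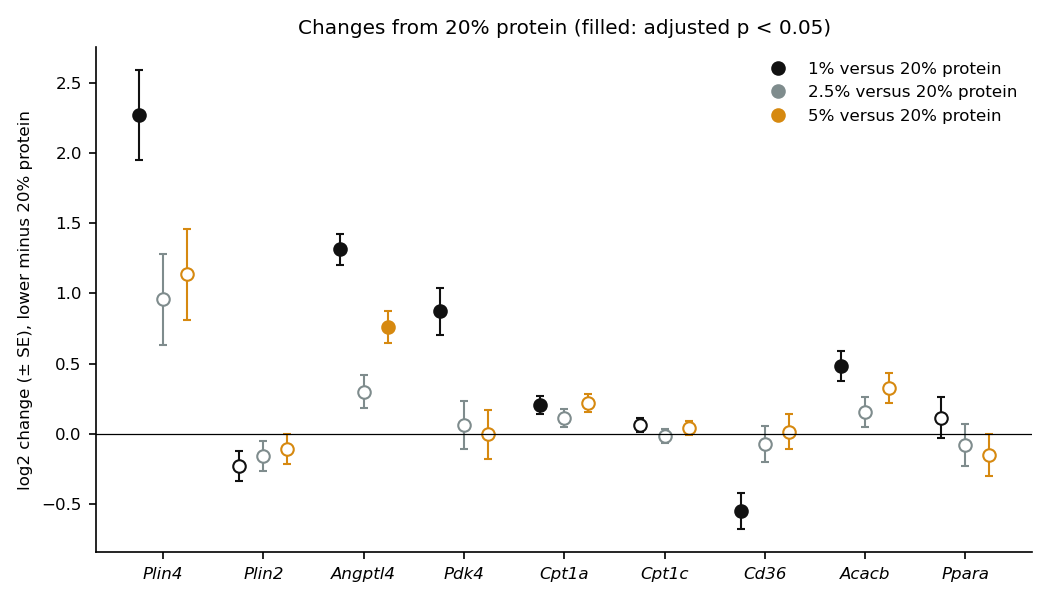
Log2 change of each gene (y axis, ± SE) at 1%, 2.5% and 5% protein against 20% protein, fitted over both fat levels; filled points passed edgeR's quasi-likelihood test. Angptl4 is filled at 1% and 5%, and Plin4, Pdk4, Cpt1a, Acacb and Cd36 at 1%. The 3 comparisons share the 20% libraries.

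Along the straight line of protein content that the design text specifies, none of the 9 genes passed, where 0.018% of all genes did. The slope, given as the log2 change between 1% and 20% protein, was 1.84 ± 0.39 for Plin4 (adjusted p = 0.140), 0.99 ± 0.23 for Angptl4 (0.145), 0.37 ± 0.11 for Acacb (0.210) and 0.18 ± 0.06 for Cpt1a (0.247) in edgeR's quasi-likelihood test. Pdk4, high at 1% alone, had 0.53 ± 0.24 (0.328), Cd36 -0.28 ± 0.16 (0.393) and Plin2 -0.20 ± 0.09 (0.332). By unadjusted p, 6 of the 9 were under 0.05, as were 14.6% of all genes. DESeq2 called Plin4 and Angptl4, with 35 genes higher and 47 lower over all genes. Protein on a log2 scale gave calls for Plin4, Angptl4, Pdk4 and Acacb, with 709 higher and 602 lower over all genes. With the start of the diet code as a covariate the slopes were 1.58 for Plin4, 1.09 for Angptl4, 0.45 for Acacb, 0.28 for Cpt1a, 0.10 for Pdk4, -0.04 for Cd36 and -0.14 for Plin2, with adjusted p of 0.983 to 0.990 and no call over all genes. That covariate leaves the slope to the steps between diets whose codes start alike, of which 5% to 20% protein is by far the longer. Pdk4 (log2 -0.0041) and Cd36 (0.015) barely changed over that step, so small slopes for them were fixed beforehand. The other 5 genes kept the sign of their slope, with no call. Over that step they had changes of the same signs: Plin4 1.13, Angptl4 0.76, Acacb 0.33, Cpt1a 0.22 and Plin2 -0.11. Those signs were thus largely fixed beforehand too. The part of the diet code was not tested. No gene of the 9 kept a protein-by-fat interaction in this model (unadjusted p = 0.282 to 0.885).

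Dietary fat gave no call among the 9 genes, where 0.00601% of all genes were called. Plin2 had the smallest p. Its 8 libraries at 60% fat ran from 10.2 to 12.4 CPM with a median of 11.6, and the 8 at 20% fat from 7.43 to 11.5 CPM with a median of 10.1, a log2 change of 0.20 ± 0.07 (unadjusted p = 0.0151 and adjusted p = 0.628, edgeR's quasi-likelihood test). The fat levels thus overlapped. Angptl4 had 0.12 ± 0.08, and the other 7 lay between -0.11 and 0.06. Plin2 was the only gene of the 9 with an unadjusted p under 0.05, where 7.79% of all genes had one, and DESeq2 called none of the 9.

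The rise at 1% against 20% protein was also tested within each fat level, with 2 libraries against 2 and the spread shared by all diets. The 2 libraries of a diet differed more at 20% fat. There the chi-square of their counts per gene was 23.5 at 1% and 6.41 at 20% protein, against 4.10 and 4.59 at 60% fat. A shared spread does not take this in, so calls at the 2 fat levels are not directly comparable. At 60% fat, Plin4 (log2 2.74 ± 0.39, adjusted p = 0.00406), Angptl4 (1.2 ± 0.17, 0.00328) and Pdk4 (1.01 ± 0.25, 0.0437) rose in edgeR's quasi-likelihood test, where 1.97% of all genes did. At 20% fat, Plin4 (1.85 ± 0.38, 0.0245) and Angptl4 (1.42 ± 0.17, 0.000957) rose, where 0.601% of all genes did, and Pdk4 had 0.74 ± 0.24 (0.155). The difference between the fat levels itself was called for none of the 9 genes and for 0% of all genes. None of the 9 had an unadjusted p under 0.05, where 7.84% of all genes did, and DESeq2 called none of them. For Plin4 that difference was 0.88 ± 0.54 (95% interval -0.17 to 1.93), for Angptl4 -0.22 ± 0.24 (-0.68 to 0.25) and for Pdk4 0.27 ± 0.35 (-0.41 to 0.94). The intervals are wide, and a difference within them was not detectable with 2 libraries a diet. Single libraries decided the counts within a fat level. The matching counts over all genes are not given here, so such losses may not be particular to the 9 genes. At 60% fat none of the 9 was called without replicate 2 of 1% protein or replicate 1 of 20% protein, and 1 without replicate 2 of 20% protein, and the Pdk4 call was lost in 9 of 24 alternatives. At 20% fat 1 was called without either library of 20% protein. Cd36 had -0.58 at 60% fat and -0.52 at 20% fat, Acacb had 0.53 at 60% fat and 0.44 at 20% fat, and neither passed at either level.

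Across the 16 libraries Plin4 went with Pdk4 (Pearson r = 0.82 of log2 CPM) and with Angptl4 (0.79), but with different parts of the variation. Within diets, after the mean of each diet was removed, Plin4 still went with Pdk4 (0.74) and not with Angptl4 (-0.09). Over the 12 libraries without 1% protein the values were 0.56 and 0.45. Plin4 and Plin2 went opposite ways in all 3 views (-0.58, -0.66 within diets and -0.66 without 1% protein). Cd36 had -0.61 with Plin4 and -0.65 with Pdk4, but 0.42 and 0.50 within diets and 0.12 and 0.07 without 1% protein. Angptl4 went with Cpt1a at 0.72, and at 0.85 without the 1% libraries. These are descriptions over libraries that share diets, depth and composition, with no test.

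**Figure D4:**
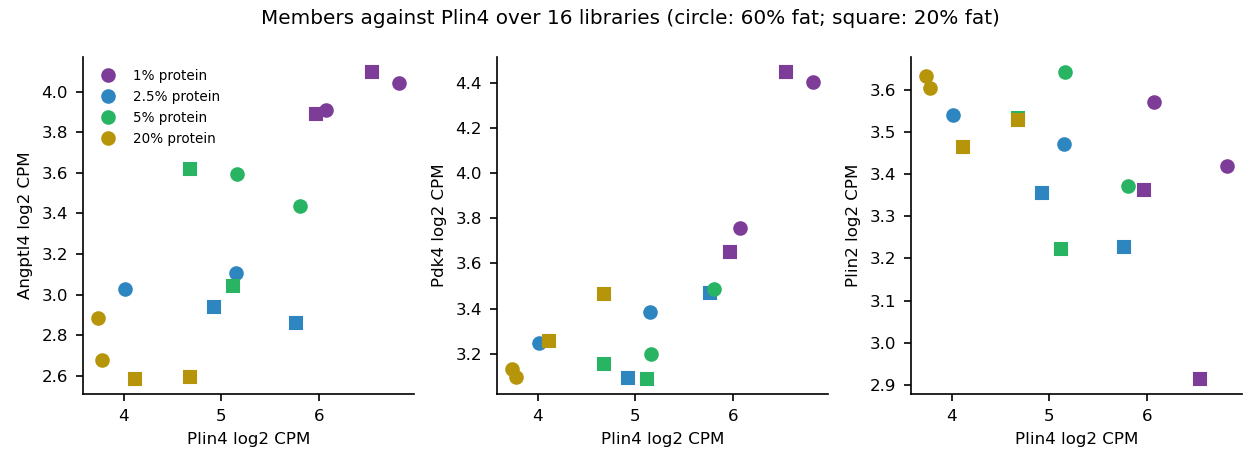
Log2 CPM of Angptl4, Pdk4 and Plin2 (y axes) against that of Plin4 (x axes) in the 16 libraries, coloured by protein level, circles 60% and squares 20% fat; axes do not start at 0. Pearson r with Plin4 is 0.79 for Angptl4 (left), 0.82 for Pdk4 (middle) and -0.58 for Plin2 (right).

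The genes most like each of the 9 were read off by Pearson r over the 16 libraries among 14772 genes with a mean of at least 1 CPM. Plin4 was nearest to Hif3a (r = 0.97), a hypoxia-inducible factor subunit, to Ada, adenosine deaminase (0.97), and to Tekt4 (0.95). Angptl4 was nearest to Fam107a (0.93), Nde1 (0.91) and Hsd17b11 (0.90), a lipid droplet protein. Pdk4 was nearest to Aff1 (0.95), Fkbp5 (0.94), a co-chaperone of the glucocorticoid receptor, and the kinase gene Sgk3 (0.94). Cd36 was nearest to Col5a2 (0.93), a fibrillar collagen, Akr1c14 (0.92) and Mpp4 (0.91). Hif3a kept its r with Plin4 within diets (0.92) and without the 1% libraries (0.97), while Fkbp5 with Pdk4 kept 0.91 within diets and 0.59 without 1% protein. For the others the nearest named genes, with 1 predicted gene passed over for Acacb and 1 for Cpt1a, were Tada2b (0.92) for Acacb, Rasl10b (0.91) for Cpt1c, Frmd8 (0.90) for Plin2, Tlr9 (0.85) for Cpt1a and Syt1 (0.79) for Ppara. All of these share library composition and depth with the gene they resemble.

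Around the 9 genes, members of the same pathways changed in part at 1% against 20% protein, where 8.26% of all genes rose and 6.01% fell. Of 20 other lipid droplet genes tested 3 rose, 1 fell and 16 did not pass, with a median log2 change of 0.07. Pnpla2, the triglyceride lipase of the droplet, had 98.7 CPM at 1% and 53.5 CPM at 20% protein (0.88 ± 0.08, edgeR quasi-likelihood adjusted p = 1.59e-05), and Dgat2, which makes triglyceride (0.53), and Hsd17b11 (0.35) rose too. Abhd5, the activator of that lipase, fell (-0.28). Of the other perilipins, picked as relatives after their values were seen, Plin5 had 0.34 (adjusted p = 0.159), Plin3 0.19 (0.237) and Plin1, at a mean of 0.616 CPM, -0.45 (0.486), and none passed. Without the 3 libraries of low mitochondrial share Plin3 had -0.23 and Plin1 0.31, and without the 2 libraries with cortex markers Plin3 rose (0.30). Of 21 genes of fatty acid uptake and lipoprotein handling 2 rose and 3 fell (median -0.03). Fabp7, a fatty acid binding protein of glia, had 7.37 CPM at 1% and 21.3 CPM at 20% protein (-1.53 ± 0.23, edgeR quasi-likelihood adjusted p = 0.000582), Mfsd2a, the lysophospholipid transporter of the blood-brain barrier, rose (0.61), and Vldlr (-0.27) and Acsl6 (-0.20) fell. Mfsd2a, also known from endothelial cells, thus went the other way from the 9 endothelial markers that fell.

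Of 20 genes of the carnitine shuttle and mitochondrial beta-oxidation 5 rose and none fell (median 0.07), among them the enzymes Acaa2 (0.49), Eci2 (0.28), Hadh (0.27) and Cpt2 (0.27). Of 9 peroxisomal genes 2 rose, among them Acox3 (0.28), and Abcd2, a peroxisomal transporter, fell (-0.40), with a median of 0.02. On the malonyl-CoA and AMPK list 1 of 13 rose, a share near the 8.26% of all genes that rose. It was Mlycd, whose enzyme breaks malonyl-CoA down (0.37, with a list median of 0.05). Of 12 pyruvate dehydrogenase genes 2 rose, the kinase Pdk2 (204.8 CPM at 1% and 148 CPM at 20% protein, 0.46) and the opposing phosphatase Pdp1 (0.34), with a median of 0.05, while Pdk1 and Pdk3 did not pass (edgeR quasi-likelihood adjusted p = 0.877 and 0.546). Of 8 ketone metabolism genes 2 rose, among them Bdh1 (0.21; median 0.09), whose enzyme interconverts ketone bodies. Of 12 PPAR and RXR receptors and coactivators Rxrb (0.24) and Rxra (0.19) rose (median 0.02).

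The PPAR and glucocorticoid target lists had more calls. Of 13 other PPAR targets tested 7 rose and none fell (median 0.27), among them Acaa2, counted above as well, Acot1 (0.48) and Ucp3 (0.39). Of 21 genes on the glucocorticoid response list 18 rose, 1 fell and 2 did not pass (median 1.00). Those that rose include Cdkn1a (2.01), Hif3a (1.55), Arrdc2 (1.48) and Sult1a1 (1.33). The gene that fell was Nr3c1, which encodes the glucocorticoid receptor itself (-0.25). Klf9 and Nr3c2, the gene of the mineralocorticoid receptor, did not pass. The lists were chosen with earlier results of these data known, so these counts are no test of a shared regulator. Without the 3 libraries of low mitochondrial share, with 1 library left at 1% protein, 14 of the glucocorticoid genes, 1 lipid droplet gene and none of the PPAR target, beta-oxidation or ketone genes passed as higher. Without the 2 libraries with cortex markers those counts were 17, 6, 7, 6 and 3, in the order glucocorticoid, lipid droplet, PPAR target, beta-oxidation and ketone genes. Over all genes 0.907% rose in the first of these settings and 17.5% in the second, against 8.26% with all libraries. The calls of Abhd5, Eci2, Bdh1, Hadh, Rxrb, Rxra and Abcd2 were lost or turned in 11 to 15 of 25 alternatives each. By fat, no gene of any of these lists was called. Of the list genes 8 were listed at 0 in all libraries, among them G0s2, Lipe, Lpin2, Cpt1b, Acaa1a, Txnip and Hsd11b1, and 7 of these 8, all but Cpt1b, lie wholly inside the span of another gene.

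**Figure D5:**
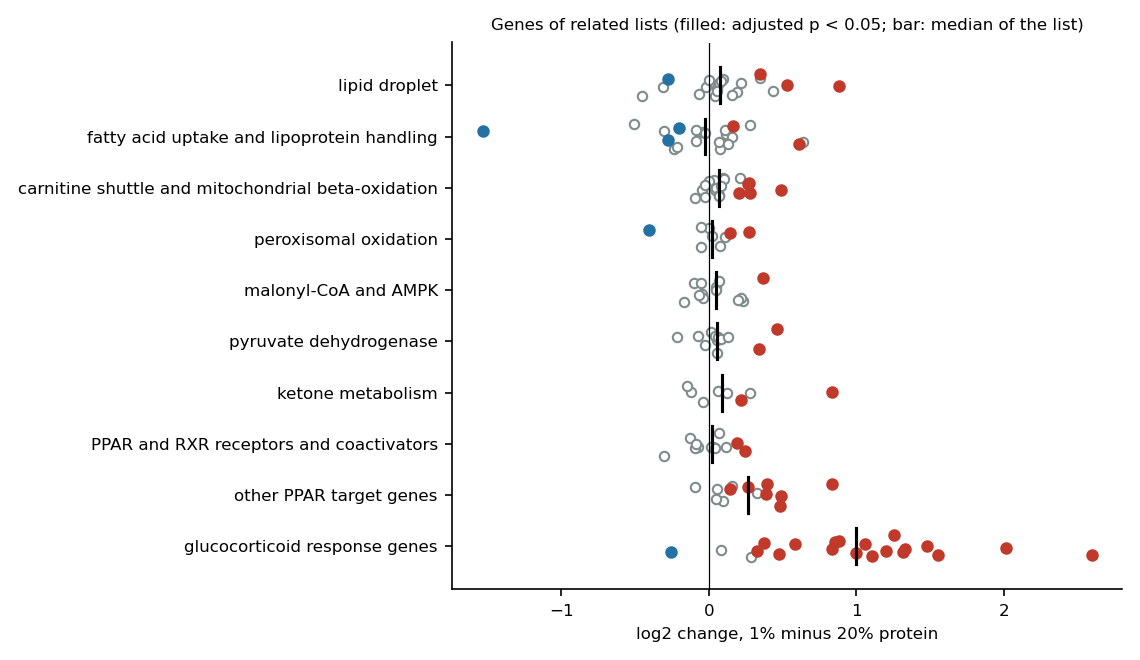
Log2 change at 1% minus 20% protein (x axis) of the tested genes of 10 lists (rows), which leave out the 9 genes described above. Filled points passed edgeR's quasi-likelihood test, red for higher and blue for lower, and the bar is the list's median, 1.00 for glucocorticoid response genes and 0.27 for other PPAR targets.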

How the data were processed

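Total RNA of hypothalamus was sequenced in 16 libraries. The deposited table holds raw gene counts, made by the authors with HISAT2 2.1.0, SAMtools 1.2, featureCounts, Subread 5.0 and GRCm38, per the submitters' processing notes. Its gene length equals the gene's span, introns included, for 85.5% of 46574 identifiers matched to GENCODE M21, so counts may take in intronic reads. Of 1122 coding genes inside another gene's span 96.0% are listed at 0, against 13.6% of the 20515 others; none of the 9 genes lies so.

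Genes were kept with filterByExpr (minimum count 10, 16646 genes) and tested in R 4.3.3 with edgeR 4.0.16 (quasi-likelihood F test, TMM scaling, Benjamini-Hochberg adjustment over all genes, threshold 0.05). All 16 libraries entered each model: the slope on protein with fat and their interaction, dropped where its p was above 0.05; protein as 4 levels with fat; and the 8 diets. Errors of log2 changes are SE, intervals 95%. Log2 CPM used a prior count of 2. Alternatives included DESeq2 1.42.0 and a surrogate variable (sva 3.50.0), and the steps were tested on simulated data. Intervals on counts cover counting error only. Named were all 9 genes, up to 4 called genes per list with the largest change and a mean of at least 1 CPM, and the 3 genes nearest each of the 9; some list genes are not reported here. The 9 genes, the lists and the alternatives were chosen with earlier results of these data known. Promoters came from RefSeq (GRCm38.p6).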

Additional observations from a re-analysis of the deposited data

Results flagged for a closer look

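Within groups of 4 to 8 libraries, 54 groups of member values were screened for a library that stands apart, and chance alone flags about 1 in 20. Pdk4 at 20% fat had its highest library, replicate 2 of 1% protein at 21.7 CPM, apart from the other 7, whose highest had 12.4 CPM, with a gap of 0.587 of the whole range. Cpt1c at 2.5% protein had its highest library, replicate 2 of 20% fat at 131 CPM, apart from the other 3 at 119 to 121 CPM, with a gap of 0.835 of the range. Both libraries are those that carried markers of cortex and hippocampus, and they also had the highest sums of choroid plexus markers. The part of those tissues in these values was not tested. The group at 20% fat holds all 4 protein levels, so its spread for Pdk4 takes in that of protein. At 60% fat Pdk4 was also highest in replicate 2 of 1% protein, at 21 CPM, with 13.4 CPM in replicate 1. Cortex markers in that replicate 2 at 60% fat lay at log2 -0.44 from their mean level. In the contrast of 1% against 20% protein, Pdk4 rose by 0.71 without both libraries that carried cortex markers, against 0.87 with them.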

How the results depend on the processing

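Without the 3 libraries of low mitochondrial share, 3 of the 9 genes rose and 0 fell at 1% against 20% protein, and 5 named values turned: Cpt1c to -0.0185, Abcd2 to 0.0687, Plin3 to -0.23, Plin1 to 0.31 and, at 1% against 2.5% protein, Acacb to -0.0370. That setting leaves 1 library at 1% protein, and comparisons within 60% fat then have no value. With 1 surrogate variable 3 rose. For the slope, DESeq2 called 2 of the 9 genes and protein on a log2 scale 4. Without the 2 libraries with cortex markers 1 of the 9 fell at 1% against 2.5% protein. The cause of these changes was not tested. When each library was left out in turn, the number called higher ran from 0 to 1 for the slope, from 4 to 5 at 1% against 20% protein (0 to 1 lower, 0 without replicate 1 of 20% fat with 1% protein), from 0 to 1 at 5% against 20%, and from 1 to 4 at 1% against 2.5% (0 to 1 lower). Within 60% fat it ran from 0 to 4 and within 20% fat from 1 to 3. A diet left with 1 library is assumed there to vary like the others, and the matching counts over all genes are not given here. Over all genes, the 1375 higher and 1001 lower at 1% against 20% protein became 154 and 249 without the 3 libraries, 2967 and 2922 without those with cortex markers, and 598 and 781 with the surrogate variable. Of 28 pairs of diets, libraries with the same replicate number deviated together at r over 0.1 in 11 (r from -0.271 to 0.461, median 0.03), so the numbers were not taken to pair them. With the replicate number as a block 5 of the 9 rose and 1 fell at 1% against 20% protein, where 9.65% of all genes rose and 7.08% fell. Within 60% fat 4 rose with the block, Acacb (0.53) among them. Over all genes 765 were higher and 1093 lower there, against 328 and 379 without the block. No scaling moved the median of all genes by over 0.05. Counts of 34 to 65 for Cd36 and 38 to 59 for Ppara limit what could be detected for them.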
